A study of Mus musculus with 6 samples.

Results

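The genes described here are 10 members of the Notch pathway: the receptors Notch1, Notch2 and Notch3, the ligands Dll1, Jag1 and Jag2, the DNA-binding factor Rbpj, and the target genes Hes1, Hey1 and Nrarp. They were taken by symbol from 24982 genes listed in each of 6 RNA-seq libraries of mouse keratinocytes, and all 10 were found. Of these libraries, 3 came from KSFM-Ca2+ cells, a keratinocyte line obtained from neonatal C57BL/6 skin and grown in a low-calcium keratinocyte medium. The other 3 came from DKSFM cells, which descend from KSFM-Ca2+ cells that survived transfer into a defined keratinocyte medium and adapted to it. That medium holds more calcium than the first. Neither line was given any treatment. The medium and the adaptation changed together, so that their parts cannot be told apart, and whether the 3 libraries of a line came from separate cultures is not given, so that p-values may measure only technical spread. The values are mean read coverage per base, a level per gene length, and coverage summed over genes was 1601676, 1238411 and 1057750 in KSFM-Ca2+ replicates 1, 2 and 3 and 1174348, 1239438 and 1170675 in the DKSFM replicates. Levels below are coverage scaled to a common library size and are called normalized coverage.

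Notch signaling passes between touching cells. A ligand of the Delta or Jagged family on a cell binds a Notch receptor on its neighbour, the receptor is cut by an ADAM protease and then by gamma-secretase, and the freed intracellular part joins the DNA-binding protein RBPJ to switch on target genes such as Hes1, Hey1 and Nrarp. In the epidermis the pathway is known for driving basal keratinocytes into differentiation, and its receptors and ligands are placed differently in the basal and the upper layers.

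In the DKSFM line the receptors Notch1, Notch2 and Notch3, the ligand Dll1 and the targets Hes1 and Nrarp were higher, and the ligands Jag1 and Jag2 were lower. Notch3 differed most, from near the lowest value the files can show to a normalized coverage of 9.25 ± 0.287 (SD, n = 3). Dll1, Nrarp, Notch2 and Hes1 rose by 2.08 to 2.43 times, Notch1 rose by 1.44 times, while Jag2 and Jag1 were 1.30 and 1.26 times as high in KSFM-Ca2+. Rbpj missed the threshold and Hey1 was too low to test. A gene was called at an adjusted p under 0.01 by limma on log2 values, over all 12409 genes that reached 0.5 in 3 or more libraries. Of the 9 members tested, 8 were called, against 72.6% of all tested genes. In DKSFM 6 were higher, against 35.5% of all tested genes, and 2 were lower, against 37.1%. At least 2-fold higher were 5 members, against 13.2% of all tested genes, and none was at least 2-fold lower, against 10.5%. Without KSFM-Ca2+ replicate 3 the former count was 4, with Hes1 just under 2-fold. In all 9 the values of the lines did not overlap, as in 83.3% of all tested genes. Notch3 entered the test through its DKSFM values alone and so had to differ. A filter asking for 0.5 in every library leaves Notch3 out. Of 8 members then tested, 5 were higher and 2 lower, against 3849 and 4291 of 11112 tested genes. At least 2-fold higher were then 4 members, against 1032 genes. With members chosen when results were known, these counts describe the genes and carry no test of the group.

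**Figure D1:**
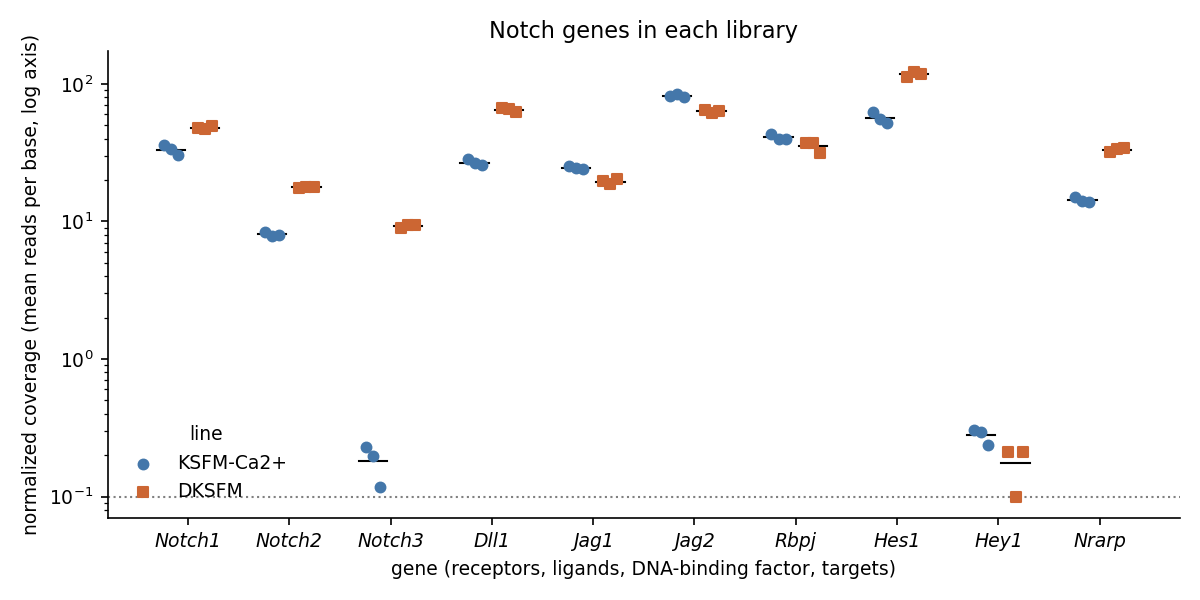
Normalized coverage (mean reads per base, log axis) of the 10 Notch genes in the 3 KSFM-Ca2+ libraries (circles) and the 3 DKSFM libraries (squares), with the mean of each line as a short bar and the rounding step of 0.1 as a dotted line. Notch3 lies near the dotted line in KSFM-Ca2+ and between 8.92 and 9.43 in DKSFM, while Hey1 lies near it in both lines.

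The promoters of the members that were at least 2-fold higher are shown, and that of Rbpj because its protein binds the motif searched. RefSeq promoters on GRCm38.p6, of 250 bases before and 50 after the start site, were matched for 8 of the 10 members, with 10 promoters in all, and Hes1 and Hey1 are not among them. The letters TGGGAA, the core that RBPJ binds, were searched on both strands, and GTGGGAA, which contains that core, was searched likewise. Which promoters to show was decided after values had been seen. Each is written 5′ to 3′ on the strand of its gene, with the TGGGAA core or its reverse complement TTCCCA in capitals. They lie at chr3:98013288-98013587 on the + strand for Notch2, chr17:32166841-32167140 on the - strand for Notch3, chr17:15375774-15376073 and chr17:15376883-15377182 on the - strand for the start sites 1 and 2 of Dll1, chr2:25180508-25180807 on the + strand for Nrarp and chr5:53590096-53590395 on the + strand for Rbpj.
Notch2: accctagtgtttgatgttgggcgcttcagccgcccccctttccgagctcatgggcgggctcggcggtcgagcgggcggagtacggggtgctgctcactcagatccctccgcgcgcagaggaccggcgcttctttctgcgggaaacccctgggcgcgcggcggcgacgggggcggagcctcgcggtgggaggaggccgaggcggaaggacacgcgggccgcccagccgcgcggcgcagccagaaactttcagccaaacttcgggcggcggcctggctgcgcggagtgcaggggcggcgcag
Notch3: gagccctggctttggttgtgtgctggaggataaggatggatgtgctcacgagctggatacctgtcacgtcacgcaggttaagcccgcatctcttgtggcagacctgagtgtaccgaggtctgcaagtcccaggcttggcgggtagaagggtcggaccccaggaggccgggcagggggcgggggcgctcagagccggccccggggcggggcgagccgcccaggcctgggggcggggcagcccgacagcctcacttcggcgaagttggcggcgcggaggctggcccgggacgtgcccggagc
Dll1, start site 1: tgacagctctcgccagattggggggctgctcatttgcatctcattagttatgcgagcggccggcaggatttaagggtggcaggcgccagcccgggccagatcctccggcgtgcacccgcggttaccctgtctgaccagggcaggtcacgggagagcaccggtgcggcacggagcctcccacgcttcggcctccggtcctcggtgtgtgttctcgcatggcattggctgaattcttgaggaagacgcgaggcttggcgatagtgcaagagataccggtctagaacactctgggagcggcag
Dll1, start site 2: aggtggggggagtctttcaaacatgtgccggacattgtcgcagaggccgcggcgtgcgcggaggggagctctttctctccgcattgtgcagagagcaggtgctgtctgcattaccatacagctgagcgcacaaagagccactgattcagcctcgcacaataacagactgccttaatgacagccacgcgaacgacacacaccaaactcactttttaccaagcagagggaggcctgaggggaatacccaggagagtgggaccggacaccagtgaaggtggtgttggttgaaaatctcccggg
Nrarp: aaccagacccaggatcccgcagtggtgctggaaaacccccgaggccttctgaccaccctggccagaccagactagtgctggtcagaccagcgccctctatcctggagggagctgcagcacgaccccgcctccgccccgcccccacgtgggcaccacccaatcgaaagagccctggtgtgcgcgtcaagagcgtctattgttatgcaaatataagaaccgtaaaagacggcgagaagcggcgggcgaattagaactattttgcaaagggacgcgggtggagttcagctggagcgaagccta
Rbpj: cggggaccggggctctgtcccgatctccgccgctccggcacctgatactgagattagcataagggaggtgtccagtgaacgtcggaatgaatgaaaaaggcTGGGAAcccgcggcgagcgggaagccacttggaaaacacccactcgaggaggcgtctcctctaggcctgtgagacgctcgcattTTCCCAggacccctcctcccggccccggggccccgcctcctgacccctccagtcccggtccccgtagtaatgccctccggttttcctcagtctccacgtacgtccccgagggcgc
The Rbpj promoter held the core at 149 bases before the start site as printed and, on the opposite strand, at 65 bases before it, counted from the first base of each match. The other Rbpj promoter in the table overlaps this one and holds the latter match again. None of the promoters of Notch1, Notch2, Notch3, Dll1, Jag1, Jag2 and Nrarp held these letters in this window. Of all 32851 promoters of that length, 25.6% held TGGGAA and 6.38% held GTGGGAA, and no member promoter held the latter. The members' promoters were rich in G and C, from 55.7% in Jag1 to 86.0% in Jag2, where the median of all promoters was 52.7%.

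Notch1 is the main Notch receptor of the epidermis. Its normalized coverage was 35.7, 33.4 and 30.6 in KSFM-Ca2+ replicates 1, 2 and 3 and 48.0, 47.0 and 49.1 in DKSFM replicates 1, 2 and 3. All DKSFM libraries were above all KSFM-Ca2+ libraries, and the log2 fold change was 0.53 (SE 0.059, 95% confidence interval 0.40 to 0.67, adjusted p = 5.03e-05 by limma). The gene lies at chr2:26457903-26516663 on the - strand (GENCODE M21, GRCm38). On the opposite strand it overlaps 0610009E02Rik, whose listed coverage was at most 0.7 in any library. On its own strand it overlaps Mir6996, listed at 0.5, 0.0 and 0.9 in KSFM-Ca2+ replicates 1, 2 and 3 and at 0 in DKSFM. The authors aligned reads with a strand setting, but whether coverage was computed by strand is not given, and the part of these genes in the value of Notch1 was not tested. The 212 other tested genes within 10 Mb had a median log2 fold change 0.07 above that of all tested genes.

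Notch2, a receptor with the same architecture, was the less abundant of the pair in both lines. It measured 8.38, 7.81 and 8.02 in KSFM-Ca2+ and 17.6, 17.9 and 17.9 in DKSFM, in normalized coverage of replicates 1, 2 and 3. The lines did not overlap, and its log2 fold change of 1.13 (SE 0.055, 95% confidence interval 1.0 to 1.26, adjusted p = 3.68e-07 by limma) was larger than that of Notch1, with intervals that did not meet. Its gene lies at chr3:98013527-98150361 on the + strand. The 250 other tested genes whose starts lie within 10 Mb of its start had a median log2 fold change 0.57 above that of all tested genes, and the 601 other tested genes of chromosome 3 a median 0.22 above it. The part of this neighbourhood in the value of Notch2 was not tested.

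Notch3, a receptor also known from smooth muscle and from basal epithelial cells, was nearly silent in KSFM-Ca2+. Its listed coverage there was 0.3, 0.2 and 0.1 in replicates 1, 2 and 3, at most 3 rounding steps of 0.1, and in DKSFM it was 8.4, 9.4 and 8.9. For its longest annotated transcript of 8016 bases, a step is worth about 9.43 reads of 85 bases. In KSFM-Ca2+ 2.7% of tested genes had a lower level than Notch3, and in DKSFM 29.7% had. Genes that did not pass the filter, such as those at 0 in every library, are left out of these shares. The ratio of mean normalized coverage was 51.0, and the rounding alone allows 39.9 to 70.1. On the log2(normalized coverage + 0.1) scale, which understates changes of low genes, the difference was 5.07 (SE 0.18, 95% confidence interval 4.66 to 5.49, adjusted p = 6.32e-08 by limma). With a pseudocount of 0.5 it was 3.84 and with a pseudocount of 1 it was 3.12. Since Notch3 passed the filter through its DKSFM values alone, the p-value and interval of the filtered fit are no test of a difference. Without the filter the log2 fold change was 5.07 too (adjusted p = 1.83e-07 by limma). The gene lies at chr17:32120820-32166852 on the - strand, and the 304 other tested genes within 10 Mb had a median 0.10 above that of all tested genes.

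Coverage is per base, and on that ground the receptors are set side by side within a library. How it was computed is not given, so that shares and orders of coverage between genes may differ from those of transcripts. Notch1 made up 80.1% ± 0.961 of the summed normalized coverage of Notch1 to Notch4 in KSFM-Ca2+ and 63.8% ± 0.655 in DKSFM (SD, n = 3). Notch2 went from 19.5% ± 1.07 to 23.7% ± 0.316, and Notch3 from 0.433% ± 0.112 to 12.3% ± 0.335. Receptor coverage summed to 41.5 ± 2.83 in KSFM-Ca2+ and 75.2 ± 1.16 in DKSFM. The order Notch1, Notch2, Notch3 was the same in every library, and the steps between them were larger than the spread between replicates. Notch4, the receptor of blood vessels, was listed at 0 in every KSFM-Ca2+ library and at 0.1, 0.2 and 0.1 in DKSFM, and it did not pass the filter.

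**Figure D2:**
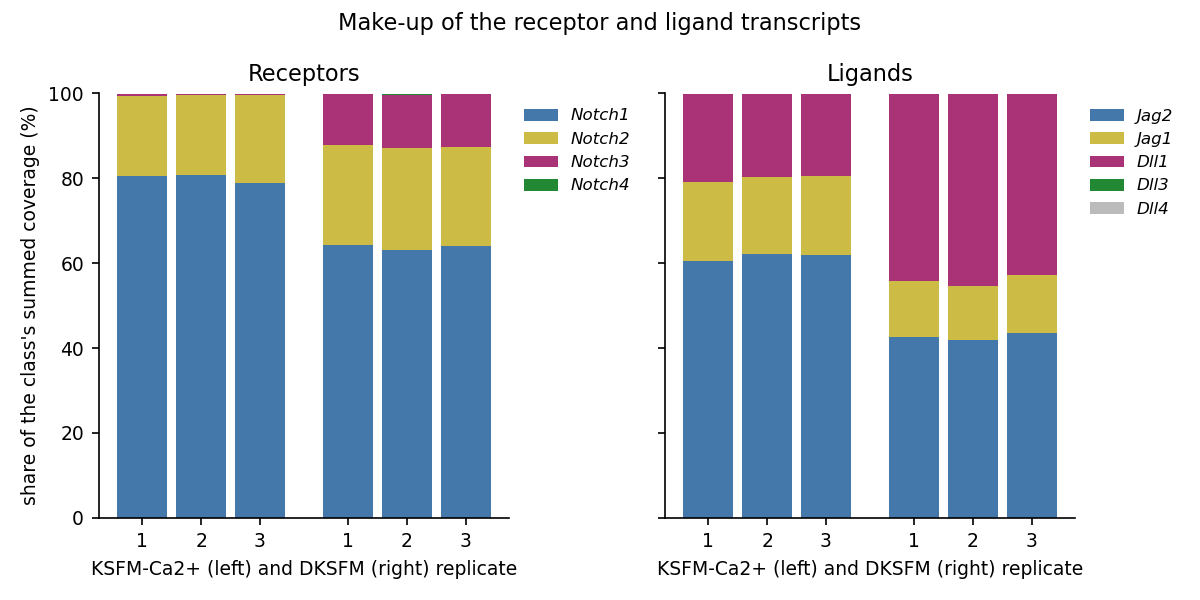
Share (%) of each receptor gene in the summed normalized coverage of Notch1 to Notch4 (left) and of each ligand gene in that of Jag2, Jag1, Dll1, Dll3 and Dll4 (right), as stacked bars with a bar per library. Notch3 takes 11.9% to 12.6% of the receptor coverage in DKSFM and at most 0.515% in KSFM-Ca2+, and Dll1 takes 42.6% to 45.1% of the ligand coverage in DKSFM and 19.5% to 20.9% in KSFM-Ca2+.

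Among the ligands the Delta gene and the Jagged genes went in opposite directions. Dll1, a Delta ligand found on basal keratinocytes, measured 28.3, 26.6 and 25.5 in KSFM-Ca2+ replicates 1, 2 and 3 and 66.9, 65.9 and 62.5 in the DKSFM replicates, in normalized coverage. Every DKSFM library was far above every KSFM-Ca2+ library. The log2 fold change was 1.28 (SE 0.05, 95% confidence interval 1.16 to 1.39, adjusted p = 1.04e-07 by limma). Dll1 lies at chr17:15367354-15376872 on the - strand, on the chromosome of Notch3, and the 140 other tested genes within 10 Mb had a median 0.01 below that of all tested genes.

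Jag2, a Jagged ligand of the basal layer, was the most abundant member in KSFM-Ca2+. Its normalized coverage was 81.7, 83.9 and 80.7 in the KSFM-Ca2+ replicates and 64.5, 61.2 and 63.9 in the DKSFM replicates. The difference was small but larger than the spread within each line, with a log2 fold change of -0.38 (SE 0.035, 95% confidence interval -0.46 to -0.30, adjusted p = 1.75e-05 by limma). Jag1, the other Jagged ligand, showed much the same at a lower level, with 25.1, 24.6 and 24.2 in KSFM-Ca2+ and 19.6, 18.7 and 20.2 in DKSFM. Its log2 fold change was -0.33 (SE 0.048, 95% confidence interval -0.45 to -0.22, adjusted p = 2.61e-04 by limma). Jag1 lies at chr2:137081456-137116644 on the - strand, where the 105 other tested genes within 10 Mb had a median 0.43 below that of all tested genes, and the part of this neighbourhood in its value was not tested. Jag2 lies at chr12:112907819-112929776 on the - strand, where it overlaps Mir6941, listed at 1.5, 0.0 and 1.7 in KSFM-Ca2+ and 1.0, 0.0 and 0.9 in DKSFM, and its 93 neighbours had a median 0.00 above that of all tested genes.

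The make-up of the ligand coverage changed accordingly. Dll1 rose from 20.1% ± 0.757 of the summed ligand coverage in KSFM-Ca2+ to 44.0% ± 1.30 in DKSFM, while Jag2 went from 61.5% ± 0.886 to 42.7% ± 0.823 and Jag1 from 18.4% ± 0.188 to 13.2% ± 0.525 (SD, n = 3). The ratio of Dll1 to Jag2, chosen after the values were seen, was 0.326 ± 0.0171 in KSFM-Ca2+ and 1.03 ± 0.0502 in DKSFM. Summed ligand coverage moved less, from 134 ± 2.73 to 148 ± 2.79. Of the remaining Delta genes, Dll4 was listed at 0 in every KSFM-Ca2+ library and at 0.2 in every DKSFM library, and Dll3 at 0 or 0.1 in both lines.

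Rbpj encodes the factor through which all Notch receptors reach their target genes. Its normalized coverage was 43.4, 39.9 and 39.8 in KSFM-Ca2+ and 37.2, 37.4 and 31.3 in DKSFM replicates 1, 2 and 3. The DKSFM libraries were all lower, but the log2 fold change of -0.22 (SE 0.075, 95% confidence interval -0.40 to -0.05) missed the threshold with an adjusted p of 0.025 by limma. Without DKSFM replicate 3, the lowest library, the log2 fold change was -0.14. The gene lies at chr5:53466152-53657362 on the + strand, where the 27 other tested genes within 10 Mb had a median 0.20 below that of all tested genes, and the part of this neighbourhood in its value was not tested. It has processed pseudogenes, and how reads shared with these were treated is not given, so that its level is uncertain.

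The targets did not share a level. Hes1, a transcriptional repressor and the best known Notch target, measured 62.3, 55.8 and 52.0 in KSFM-Ca2+ and 112, 122 and 118 in DKSFM replicates 1, 2 and 3, in normalized coverage. The lines were well apart, with a log2 fold change of 1.05 (SE 0.066, 95% confidence interval 0.90 to 1.21, adjusted p = 1.51e-06 by limma), and Hes1 was the most abundant member in DKSFM. It lies at chr16:30064384-30067796 on the + strand. Nrarp encodes a small ankyrin repeat protein that is switched on by Notch and limits it by destabilizing the intracellular part. Its normalized coverage was 15.0, 14.1 and 13.9 in KSFM-Ca2+ and 32.2, 33.6 and 34.1 in DKSFM. That is a log2 fold change of 1.21 (SE 0.05, 95% confidence interval 1.09 to 1.32, adjusted p = 1.50e-07 by limma), and the gene lies at chr2:25180758-25183339 on the + strand. The 204 other tested genes within 10 Mb of Nrarp had a median 0.10 above that of all tested genes, and the 133 around Hes1 a median 0.12 above it. The 391 other tested genes of chromosome 16, which holds Hes1, had a median 0.25 above it.

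Hey1, a repressor related to the Hes family, was at the edge of what the files resolve. Its listed coverage was 0.4, 0.3 and 0.2 in KSFM-Ca2+ and 0.2, 0.1 and 0.2 in DKSFM replicates 1, 2 and 3. A step of 0.1 is worth about 2.85 reads for its longest annotated transcript of 2423 bases. The ratio of KSFM-Ca2+ to DKSFM means was 1.60, and the rounding alone allows 1.02 to 2.67. In normalized coverage the KSFM-Ca2+ libraries (0.236 to 0.305) lay above those of DKSFM (0.0999 to 0.212). KSFM-Ca2+ replicate 3 and DKSFM replicates 1 and 3 were all listed at 0.2, so that the gap between them comes from the scaling. Tested without the filter, Hey1 had a log2 fold change of -0.49 and was not called (adjusted p = 0.143 by limma). It lies at chr3:8663359-8667256 on the - strand, and the 21 other tested genes within 10 Mb had a median 0.30 below that of all tested genes.

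**Figure D3:**
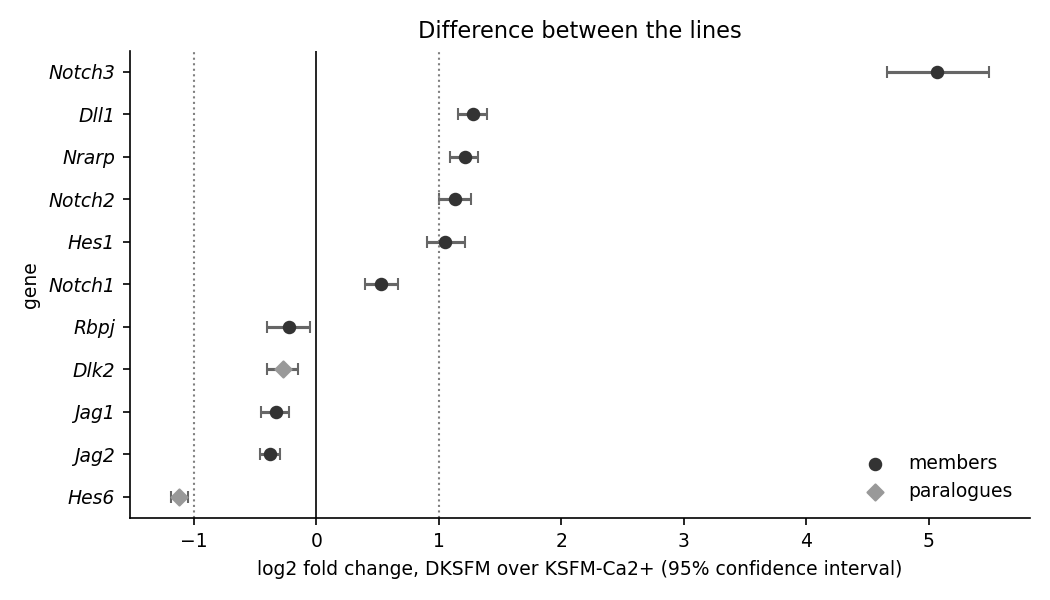
Log2 fold change of DKSFM over KSFM-Ca2+ with its 95% confidence interval for the 9 members tested (circles) and the 2 paralogues tested (diamonds), with solid and dotted lines at no change and at 2-fold. Notch3 stands at 5.07, followed by Dll1, Nrarp, Notch2 and Hes1 between 1.28 and 1.05, with Hes6 lowest at -1.12.

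Ordered by normalized coverage, the members ran in KSFM-Ca2+ from Jag2 (82.1 ± 1.61, SD, n = 3) through Hes1, Rbpj, Notch1, Dll1, Jag1, Nrarp and Notch2 (8.07 ± 0.289) to Hey1 and Notch3, each above the next without overlap of the replicates, although Hey1 and Notch3 lie within the rounding of each other. In DKSFM the order was Hes1 (118 ± 5.01), Dll1, Jag2, Notch1, Rbpj, Nrarp, Jag1, Notch2, Notch3 and Hey1 (0.175 ± 0.0648). There Dll1 (65.1 ± 2.28) and Jag2 (63.2 ± 1.81) overlapped, as did Rbpj (35.3 ± 3.46) and Nrarp (33.3 ± 1.01), and the remaining neighbours did not.

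The genes nearest to a member in pattern were found by the distance between log2 values centred on each gene's mean over the 6 libraries. Nearest to Notch3 were Krt15, a keratin of basal and hair follicle stem cells, at a distance of 0.315, Scara5 at 0.365 and Rgma at 0.406. Krt15 went from a mean normalized coverage of 13.6 to 392. Nearest to Dll1 were Ntn4, a netrin, at 0.0788, 6430548M08Rik at 0.0874 and Sun2 at 0.0902. Nearest to Nrarp were Gas6, a ligand of TAM receptors, at 0.06, Baiap2 at 0.0675 and AI661453 at 0.068. The difference between the lines is part of this distance, since all 6 libraries enter it.

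The wider families were mostly at or near 0. Of 13 paralogues of the members, 2 passed the filter, and both were called lower in DKSFM, against 37.1% of all tested genes. Without the filter, Notch4 and Dll4 were called higher, but they were listed at 0 in every KSFM-Ca2+ library and at most at 0.2, which is 2 rounding steps, in DKSFM, so that nothing is read from these calls. Hes6, a relative known to counteract Hes1, fell from 210, 214 and 215 in KSFM-Ca2+ to 99.3, 94.5 and 100 in DKSFM replicates 1, 2 and 3, in normalized coverage. Its log2 fold change was -1.12 (SE 0.032, adjusted p = 2.04e-08 by limma), the opposite direction to Hes1, and the ratio of Hes1 to Hes6, chosen after the values were seen, went from 0.266 ± 0.0278 to 1.20 ± 0.0835. Dlk2, a Delta-like membrane protein without the domain that activates receptors, went from a mean of 59.7 ± 3.87 to 49.3 ± 2.14, with a log2 fold change of -0.27 (SE 0.055, adjusted p = 0.00186 by limma). Dlk1, Rbpjl, Hes3, Hes5 and Heyl were listed at 0 in every library. Hes2 and Hey2 were listed at 0 or 0.1, and Hes7 at 0.2, 0.1 and 0.2 in KSFM-Ca2+ and 0.2, 0.4 and 0.4 in DKSFM, where the lines overlapped.

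The counts of called genes in the lists that follow are to be read against the 35.5% of all tested genes that were higher in DKSFM and the 37.1% that were lower. Receptors are fitted with sugars in the secretory pathway, which sets the ligands they answer to. Of 5 glycosylation genes, 4 were tested, 2 were higher in DKSFM and 1 was lower, and the median log2 fold change was 0.18 beside 0.00 for all tested genes. The fringe genes Rfng and Lfng, whose enzymes extend O-fucose on the receptors, rose by 0.87 (SE 0.052, adjusted p = 1.19e-06 by limma) and 0.39 (SE 0.048, adjusted p = 1.01e-04) on the log2 scale. Mfng, the remaining fringe gene, was listed at 0 throughout. Pofut1, which places the O-fucose itself, fell by 0.41 on the log2 scale (SE 0.041, adjusted p = 2.95e-05).

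Genes for the cuts that mature and release the receptor moved in both directions. Of 10, 9 were tested, 6 were higher in DKSFM and 3 were lower (35.5% and 37.1% of all tested genes), and the median over those tested was a log2 fold change of 0.65. Psenen, a subunit of gamma-secretase, rose by 0.92 (SE 0.056, adjusted p = 1.32e-06 by limma), Furin, the protease that cuts the receptor on its way to the surface, by 0.77 (SE 0.075, adjusted p = 2.21e-05), and the gamma-secretase subunit Aph1a by 0.70 (SE 0.051, adjusted p = 4.15e-06), all on the log2 scale. Psen2, an alternative catalytic subunit of gamma-secretase, went the other way, from 19.8, 22.7 and 21.2 in KSFM-Ca2+ to 7.43, 6.69 and 8.06 in DKSFM in normalized coverage. Its log2 fold change was -1.51 (SE 0.085, adjusted p = 7.99e-07), and Ncstn, the subunit that receives substrates, had -0.62 (SE 0.036, adjusted p = 9.55e-07). Aph1b had -0.34 (SE 0.079, adjusted p = 0.00427), but it shares sequence with its near copy Aph1c and is uncertain, and its call was lost under 7 of 16 alternatives, with a highest adjusted p of 0.0684, among them the fits that left out any library except KSFM-Ca2+ replicate 3 (log2 fold changes of -0.36 to -0.27).

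**Figure D4:**
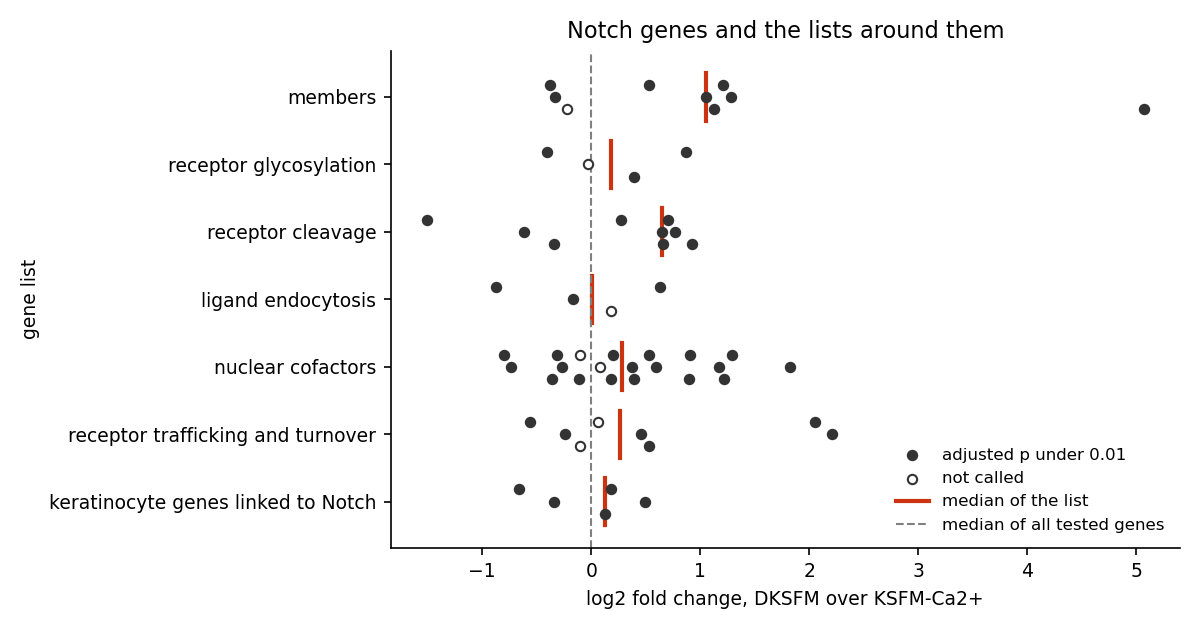
Log2 fold change of DKSFM over KSFM-Ca2+ for each tested gene of 7 lists, filled where the adjusted p was under 0.01 and open otherwise, with the median of each list as a thick bar and that of all tested genes (0.00) as a dashed line. Points lie on both sides of 0 in every list, and list medians range from 0.01 for ligand endocytosis to 1.05 for the 9 members tested.

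Ligands have to be taken up by the cell that sends the signal. All 4 genes of this step were tested, with 1 higher, 2 lower and a median log2 fold change of 0.01. The ubiquitin ligase genes of the Neuralized family differed in direction, with Neurl1b at 0.63 (SE 0.099, adjusted p = 4.50e-04 by limma) and Neurl1a at -0.87 (SE 0.096, adjusted p = 5.02e-05). Mib1, the ubiquitin ligase needed by most ligands in mammals, had -0.17 (SE 0.041, adjusted p = 0.00539). That call was lost under 6 of 16 alternatives, with adjusted p-values up to 0.0986, including the fits without KSFM-Ca2+ replicate 1 (-0.15) or 2 (-0.17) and without DKSFM replicate 1 (-0.15) or 2 (-0.16).

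Of 20 nuclear cofactors, all were tested, 12 were higher in DKSFM and 6 were lower (35.5% and 37.1% of all tested genes), and the median over those tested was a log2 fold change of 0.28. The Groucho-type corepressor Tle3, a partner of Hes proteins, rose by 1.29 on the log2 scale (SE 0.057, adjusted p = 2.13e-07 by limma), and Cir1, a corepressor that binds RBPJ, by 1.22 (SE 0.19, adjusted p = 4.01e-04). Tle2, another gene of that corepressor family, had a value of 1.82 (SE 0.47, adjusted p = 0.00704) at low normalized coverage of 1.07, 1.09 and 0.236 in KSFM-Ca2+ and 2.23, 2.40 and 3.39 in DKSFM. Over the 15 alternatives that tested it, the value of Tle2 ran from 1.06 to 2.99, and without KSFM-Ca2+ replicate 3, its lowest library, it was 1.22. Its call was lost under 5 of them, without the filter (adjusted p = 0.0106), without the trend (0.0216) and without DKSFM replicate 1, 2 or 3 (0.0178, 0.0263 and 0.0321). Lower in DKSFM were the corepressor genes Ctbp2, at -0.80 (SE 0.037, adjusted p = 2.89e-07), and Tle4, at -0.74 (SE 0.13, adjusted p = 8.03e-04), and Ep300, an acetyltransferase recruited by the Notch complex, at -0.36 (SE 0.058, adjusted p = 5.23e-04). With only the 4 libraries named as combined, of which 1 is from KSFM-Ca2+, Tle4 had -0.51 and Ep300 -0.34, and both lost the call. That lone library gives no spread of its own, so these losses rest on the spread of the DKSFM libraries. Without KSFM-Ca2+ replicate 1, 4 cofactors were called lower in place of 6. Among the cofactors not chosen by size of change, the calls of Maml1 and Ctbp1 were lost under 12 and 9 of the 16 alternatives.

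Receptor trafficking and turnover held the largest changes of the other pathway lists. Of 9 genes, 8 were tested, 4 were higher and 2 lower, and the median over those tested was a log2 fold change of 0.26. Dtx2, a Deltex ubiquitin ligase that binds Notch, went from 58.4, 58.7 and 60.1 in KSFM-Ca2+ to 274, 268 and 279 in DKSFM, in normalized coverage of replicates 1, 2 and 3. Its log2 fold change was 2.21 (SE 0.029, adjusted p = 6.17e-10 by limma). Numbl, a relative of the Notch inhibitor Numb, went from 7.85, 9.0 and 7.43 to 34.3, 32.0 and 35.1, a log2 fold change of 2.05 (SE 0.079, adjusted p = 9.79e-08). In mean normalized coverage Dtx2 was 4.63 times and Numbl 4.17 times as high in DKSFM, with no overlap. Fbxw7, which marks the intracellular part of Notch for degradation, rose by 0.53 (SE 0.042, adjusted p = 6.60e-06). Dtx4, another Deltex gene, had -0.56 (SE 0.07, adjusted p = 1.06e-04) and the ubiquitin ligase gene Nedd4 -0.24 (SE 0.026, adjusted p = 4.41e-05).

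Keratinocyte genes linked to Notch in the epidermis did not move as a block. Of 6, 5 were tested, 3 were higher and 2 lower, and the median over those tested was a log2 fold change of 0.13. The suprabasal keratin Krt1 was listed at 0 in every KSFM-Ca2+ library and at 0.5, 0.8 and 0.2 in DKSFM, and did not pass the filter. Tested without the filter, it was called higher (adjusted p = 7.49e-04 by limma) against a line listed at 0 throughout, and Krt10 was then not called (adjusted p = 0.0148). Its partner Krt10 had normalized coverage of 3.35, 3.46 and 3.66 in KSFM-Ca2+ and 4.57, 6.10 and 4.35 in DKSFM, with a log2 fold change of 0.49 (SE 0.14, adjusted p = 0.00963 by limma). Ivl, which encodes the cornified envelope protein involucrin, was lower, with 21.1, 21.4 and 21.5 in KSFM-Ca2+ and 13.2, 13.4 and 13.9 in DKSFM and a log2 fold change of -0.66 (SE 0.048, adjusted p = 3.70e-06). The cell cycle inhibitor gene Cdkn1a had 0.18 (SE 0.032, adjusted p = 7.47e-04), and Trp63, which encodes the basal transcription factor p63, 0.13 (SE 0.033, adjusted p = 0.00658). The call of Krt10 was lost under 11 of 16 alternatives, with adjusted p-values up to 0.104, and that of Trp63 under 9, with adjusted p-values up to 0.0266. With only the 4 libraries named as combined, of which 1 is from KSFM-Ca2+, Cdkn1a had 0.15 and lost the call, as did Krt10 and Trp63. The spread in that fit comes from the DKSFM libraries. For Krt10 the losses included leaving out any library except DKSFM replicate 3 (0.35 to 0.56), and for Trp63 any library except DKSFM replicate 1 (0.11 to 0.15).

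The cells carried the markers of basal keratinocytes. The 5 basal markers summed to a normalized coverage of 18500, 18900 and 18600 in KSFM-Ca2+ and 44400, 40400 and 44700 in DKSFM. Most of that sum was the basal keratin Krt14, with a log2 fold change of 1.31 (SE 0.044, adjusted p = 4.68e-08 by limma), and its partner Krt5, with 1.25 (SE 0.05, adjusted p = 1.28e-07). Of the 5, 4 were called higher and 1 lower. Outside the keratins, the hemidesmosome genes Col17a1 and Itga6 had 0.37 (adjusted p = 2.64e-05) and 0.14 (adjusted p = 0.00388), while the hemidesmosome integrin gene Itgb4 was lower, at -0.74 (SE 0.037, adjusted p = 4.43e-07). The call of Itga6 was lost under 8 of 16 alternatives, with adjusted p-values up to 0.0176, among them the fits without KSFM-Ca2+ replicate 2 (0.14) or 3 (0.12) and without DKSFM replicate 1 (0.16) or 3 (0.12). In bulk RNA, more cells of a kind and more RNA per cell cannot be told apart, and the part of this change in the Notch genes was not tested. Markers of other skin cells were low, except Pecam1 and Cd68, which averaged 7.58 and 17.6 in DKSFM. Fibroblast markers summed to 1.14, 0.89 and 1.30 in KSFM-Ca2+ and 2.34, 2.10 and 2.23 in DKSFM, all of it Pdgfra, with the other 5 of 6 (Col1a1, Col1a2, Col3a1, Dcn and Lum) at 0 in every library. Endothelial markers summed to 2.82, 3.16 and 3.30 in KSFM-Ca2+ and 8.28, 8.29 and 7.42 in DKSFM. Most of that was Pecam1 (1.42 on the log2 scale, adjusted p = 3.96e-06), and of the 5, Cdh5 and Emcn were at 0 in every library. Immune markers summed to 10.9, 11.2 and 12.6 in KSFM-Ca2+ and 13.6, 18.9 and 20.6 in DKSFM, mostly Cd68, a lysosomal protein gene, with Cd3e listed at 0 and the other 3 of 5 listed at 0.1 or less in every library. The log2 fold change of Cd68 was 0.60 (adjusted p = 0.00515), and without KSFM-Ca2+ replicate 1 or 2 or DKSFM replicate 2 or 3 it was 0.47 to 0.57 and not called. The 5 melanocyte markers summed to 0.533, 0.89 and 0.708 in KSFM-Ca2+ and 0.318, 0.60 and 0.212 in DKSFM, with Pmel the most abundant and Dct and Tyr at 0. The 3 Merkel cell markers summed to at most 1.07 in any library, with Isl1 the most abundant and Atoh1 at 0.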

How the data were processed

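RNA-seq was performed on 3 KSFM-Ca2+ and 3 DKSFM libraries. Stranded poly(A) libraries were read by the authors from 1 end over 85 bases, with alignment to mm10 by STAR. The deposited signal is coverage: for each gene, how many reads lie on a base on average, rounded to 1 decimal and unscaled. How it was computed, and why 4 files are named as combined, is not given. It is no count, so limma replaced the count model of the study.

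Scaling used trimmed means of M values without weights (30% of M values and 5% of A values trimmed at each end, factors 0.991 to 1.01). Genes with at least 0.5 in at least 3 libraries were tested (at least 2 where a library was left out) as log2(normalized coverage + 0.1) with an intensity trend, two-sided, without covariates, with Benjamini-Hochberg adjustment over 12409 genes. The fold of 2 was counted separately. Software comprised limma 3.58.1 in R 4.3.3, and Python 3.11.15 with pandas 2.3.3. Coordinates came from GENCODE M21, where 12291 tested symbols were found. Read numbers were not used here, and rounding limits low values. Replicates of a line differed in listed value for 95.4% to 97.4% of tested genes.

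The members and lists were chosen with earlier results of these data known, and the window of 10 Mb and the rounding intervals after values had been seen. Named were all members, their paralogues, keratinocyte genes linked to Notch (the values of 1 are not reported here), up to 3 called genes per direction of each other pathway list with the largest fold change, the most abundant gene of each marker list, and the 3 genes nearest in pattern to the receptor, ligand and target (with Rbpj) of largest change. Maml1, Ctbp1, the other basal markers and marker genes listed at 0 were named after their values were seen. The alternatives were 3 other scalings, 2 filters, 2 pseudocounts, no trend, a replicate block, each library left out and the 4 combined libraries. The fit on the combined libraries holds a lone KSFM-Ca2+ library, so its p-values take their spread from the DKSFM libraries.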

Additional observations from a re-analysis of the deposited data

How the results depend on the processing

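All 9 members tested kept their direction and their side of the threshold under each of the 16 alternatives that tested them. Notch3 had no value with the filter on every library. The lowest and highest log2 fold changes were 0.47 and 0.65 for Notch1, 1.04 and 1.16 for Notch2, 3.12 and 5.38 for Notch3, 1.24 and 1.35 for Dll1, -0.39 and -0.30 for Jag1, -0.39 and -0.35 for Jag2, 1.0 and 1.17 for Hes1, 1.16 and 1.25 for Nrarp and -0.26 and -0.14 for Rbpj. The adjusted p of Jag1 reached 0.00987 and that of Rbpj ran from 0.0107 to 0.182. At least 2-fold higher were 4 members in place of 5 without KSFM-Ca2+ replicate 3, where Hes1 had its lowest value, and with the filter on every library. Without a filter, 2 paralogues, Notch4 and Dll4, were called higher in place of 0, and of the keratinocyte genes Krt1 was gained and Krt10 lost. Notch4, Dll4 and Krt1 were listed at 0 in every KSFM-Ca2+ library.

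With the filter on every library, 1032 genes were at least 2-fold higher in place of 1636, since that filter removes genes that are low in a line. Among keratinocyte genes linked to Notch, 1 was called higher in place of 3 by library totals, without the trend and with the replicate block, and 1 to 3 with a library left out. These last counts do not hold the same genes. Without a KSFM-Ca2+ library or without DKSFM replicate 3, Krt1 passed the filter and was counted, while Trp63 lost its call. With the combined libraries Krt10, Cdkn1a and Trp63 lost their calls. In ligand endocytosis, 1 was called lower in place of 2 with the replicate block and with the combined libraries, and 1 to 2 with a library left out. Of the nuclear cofactors, 1 was lower in place of 6 with the combined libraries, where KSFM-Ca2+ has a lone library that is assumed to vary like the others. The cause of the other changes was not tested.

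Same-numbered libraries did not deviate together (correlations of -0.00509, 0.0239 and -0.0061), and not every library correlated best with its own number. With the replicate block 4265 genes were higher and 4461 lower, in place of 4401 and 4606. The members and the other lists held 70 tested genes, of which 62 were called, against 72.6% of all tested genes. Of 62 called genes in the lists, 44 were called under every alternative that tested them, 8 lost the call with the combined libraries alone (among them Cdkn1a, Tle4, Ep300 and Pdgfra) and 10 under others. How many of all called genes kept their call under every alternative was not counted. Rounding to 0.1 limits Notch3 in KSFM-Ca2+, and Hey1, Notch4 and Dll4 in both lines.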
